A study of Mus musculus with 35 samples.

Results

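The comparison described here is the response of cytotoxic T lymphocytes (CTLs) to interleukin-2 (IL-2) in acid medium, at pH 6.6. It rests on 10 of the 35 RNA-seq libraries of the series, 5 from cells that received IL-2 at this pH and 5 from cells that did not, chosen by their labels and paired by the replicate number (n1 to n5) in their titles. All genes were examined, and 13819 of the 48709 genes in the count tables passed a filter on low counts and were tested.

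The cells were OT-I CTLs, which are mouse CD8+ T cells that carry a transgenic T cell receptor for a peptide of ovalbumin. Per the study's methods, splenic CD8+ T cells were primed with antibodies to CD3 and CD28 and expanded in IL-2, so every group, the groups without IL-2 included, had grown in IL-2 beforehand. Murine IL-2 at 200 IU/mL was then added or left out for 24 h in medium of pH 7.4, pH 7 or pH 6.6, and with a group taken at 0 h this gave 7 groups of 5 biological replicates. The medium was acidified with HCl, dead cells were removed on Ficoll before RNA was extracted, and polyadenylated RNA was sequenced, so that the values describe cells that were still alive. These were cultured cells of 1 receptor specificity, and the labels do not say whether a replicate was 1 mouse or a pool.

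IL-2 binds a receptor of an alpha chain (Il2ra, CD25), a beta chain (Il2rb, CD122) and the common gamma chain (Il2rg). The kinases JAK1 and JAK3 on the receptor phosphorylate STAT5, which enters the nucleus and activates genes of survival, of the G1 phase of the cell cycle and of killing, together with the feedback inhibitors of the CIS and SOCS family. In parallel the receptor feeds the MAPK pathway and the kinase mTORC1 and raises c-Myc, which drive ribosome production, glycolysis, lipid synthesis and growth, while FOXO transcription factors, which keep genes of quiescence and lymph node homing active, are held out of the nucleus.

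The total count on genes at pH 6.6 was 22257963 to 33054825 per library without IL-2 and 16721319 to 25622491 with IL-2, within the 16721319 to 34033340 of all libraries. Reads aligned to more than 1 place, which were not counted, made up 36.2% to 39.5% of the reads at pH 6.6, and mitochondrial genes held 0.701% to 1.15% of the counts. The 10 markers of CD8 T cells were all measured, and their summed level was 3708 to 4561 CPM without IL-2 and 4624 to 6546 CPM with IL-2. These markers include Gzmb and Prf1, which rose with IL-2 at pH 6.6 (below), so the sums also carry the rise of these genes. CPM is the count scaled to the library total, which was normalised for single genes and raw for the marker sums. The 6 B cell markers summed to at most 1.82 CPM in any library at pH 6.6, with Ms4a1, Cd22 and Pax5 at 0 in all 10. The 5 red cell markers summed to at most 0.0598 CPM, with Hba-a1, Hba-a2 and Hbb-bs at 0. The 7 myeloid markers summed to 17.5 to 32.6 CPM without IL-2 and 17.2 to 31.9 CPM with IL-2, and Fcgr1 was at 0. In bulk RNA, fewer cells of a type and less RNA per cell cannot be told apart, and this holds for every gene below.

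At pH 6.6 IL-2 still changed 3278 genes, which is 23.7% of those tested (edgeR's quasi-likelihood test, adjusted p under 0.05). Of these, 1819 (13.2%) were higher with IL-2 and 1459 (10.6%) were lower. These 2 shares are the background for the counts of rises and falls at pH 6.6 in each gene list below. The changes were small: the median absolute log2 fold change over all genes tested was 0.19 at pH 6.6, against 0.80 at pH 7.4 and 0.70 at pH 7. The rises were larger than the falls, with a median log2 fold change of 0.65 for the genes called higher and -0.33 for those called lower. A change of 1 or more on the log2 scale was found in 474 genes that rose and 42 that fell, and one of 2 or more in 127 and 2. At pH 7.4 the same sizes were reached by 2775 rises and 2882 falls, and by 1060 and 1057. With the replicate pairing left out of the model, 1504 genes were higher and 911 lower at pH 6.6. Leaving out single libraries moved the count of falls most: it was 945, 919 and 931 without replicate 1, 4 or 5 of the IL-2 group.

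The same test called 11111 genes (80.4%, 39.3% higher and 41.1% lower) at pH 7.4 and 10667 (77.2%, 37.6% higher and 39.5% lower) at pH 7. Of the 1819 genes that rose with IL-2 at pH 6.6, 1469 also rose at pH 7.4, which is 80.8% of the former and 27% of the 5433 rises at pH 7.4. Of the 1459 genes that fell at pH 6.6, 1220 also fell at pH 7.4, which is 83.6% of the former and 21.5% of the 5678 falls at pH 7.4. The effect of IL-2 itself differed from that at pH 7.4 for 9261 genes (67%, interaction contrast of the same model), with a difference above 0 for 34.3% of all genes and below 0 for 32.8%. These comparisons share no library. All 5 libraries with IL-2 lay above all 5 without it for 6.79% of the genes tested, and below them for 5.15%.

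**Figure D1:**
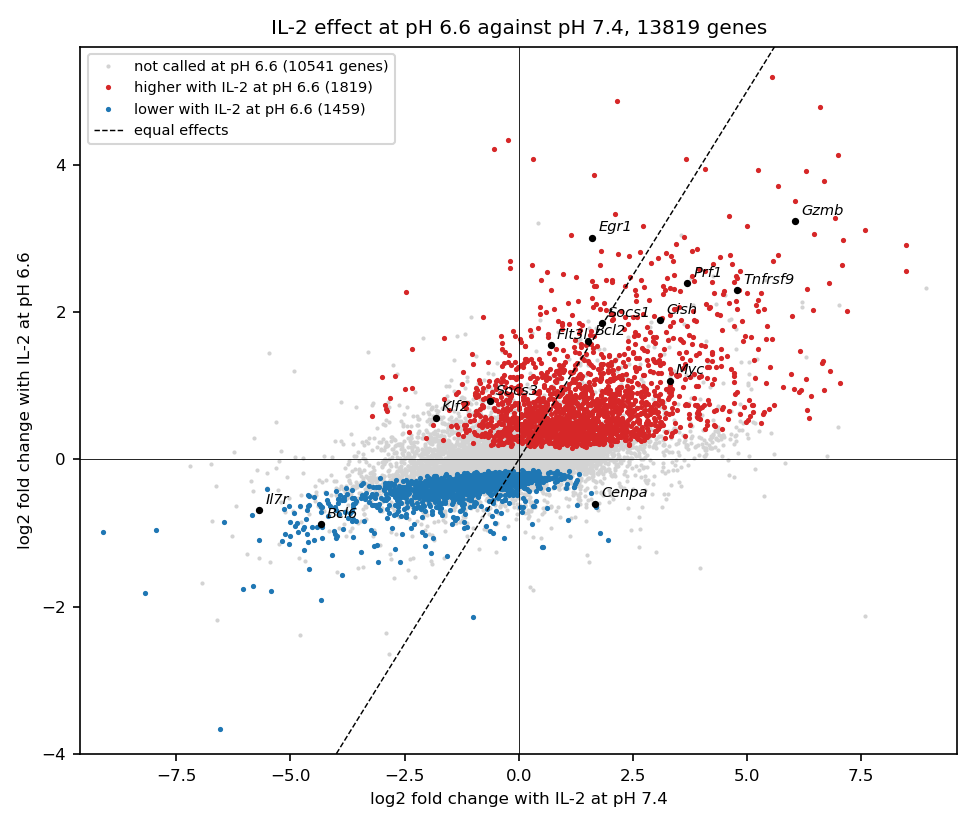
Each point is 1 of the 13819 genes, with its log2 fold change with IL-2 at pH 7.4 on the horizontal axis and at pH 6.6 on the vertical axis. Genes called higher (1819, red) and lower (1459, blue) at pH 6.6 lie mostly below the dashed line of equal effects on the right and above it on the left, and rises reach further from 0 than falls.

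Among the 2775 genes that IL-2 raised by a log2 fold change of at least 1 at pH 7.4, the median was 1.69 at pH 7.4, 1.48 at pH 7 and 0.30 at pH 6.6, and 1125 of them (40.5%) were called higher at pH 6.6. Among the 2882 genes that IL-2 lowered as strongly at pH 7.4, the medians were -1.71, -1.49 and -0.24, and 700 (24.3%) were called lower at pH 6.6. These 2 sets were chosen by the effect at pH 7.4, so the medians at pH 7.4 follow from the choice. The log2 CPM difference in each pair at pH 6.6 was set against the mean difference of the 5 pairs at pH 7.4, over all genes. The slope was 0.189, 0.111, 0.117, 0.212 and 0.231 in replicates 1 to 5, a mean of 0.172 ± 0.055 (SD, n = 5). At pH 7 it was 0.843 to 0.898. Replicates 2 and 3 had the smallest slopes at pH 6.6. Their IL-2 libraries also lay nearest to the libraries without IL-2 on the first principal component of the 10 libraries, which held 36.8% of the variance (-6.50 and -3.98, against -41.57 to -31.8 for the other IL-2 libraries and 13.9 to 33.4 without IL-2).

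The genes that answer STAT5 most directly were among those that responded at pH 6.6. Of 26 STAT5 feedback genes and targets, 16 rose and 2 fell, and the median log2 fold change was 0.43 at pH 6.6, 1.63 at pH 7 and 1.52 at pH 7.4, where the median of all genes tested was -0.04 at each pH. Cish, the feedback inhibitor CIS, stood at 71.1, 105, 102, 130 and 132 CPM without IL-2 in replicates 1 to 5 and at 357, 356, 306, 519 and 472 CPM with IL-2. All 5 libraries with IL-2 lay above all 5 without it. The fitted log2 fold change was 1.90 ± 0.17 (SE, edgeR adjusted p = 1.08e-09) at pH 6.6 against 3.10 at pH 7.4, a difference of -1.21 (95% confidence interval -1.70 to -0.72). The mean with IL-2 was 402 CPM at pH 6.6 and 422 CPM at pH 7.4, while the mean without IL-2 was 108 and 49.9 CPM.

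Socs1, a second feedback inhibitor of JAK kinases, stood at 10.4, 9.51, 8.18, 13.1 and 9.11 CPM without IL-2 and at 38.1, 33, 30, 39.7 and 40.4 CPM with IL-2, again with no overlap. Its log2 fold change was 1.85 ± 0.17 at pH 6.6 and 1.82 at pH 7.4, and the 95% confidence interval of the difference was -0.44 to 0.52. Socs2 rose by a log2 fold change of 0.47 ± 0.09, against 1.96 at pH 7.4. Socs3 went the other way between the media: it rose by 0.79 ± 0.19 at pH 6.6 (edgeR adjusted p = 0.00198), with overlapping groups of 25.9 to 53.5 and 40.4 to 111 CPM, and was lower with IL-2 at pH 7.4 (-0.64).

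Among the PIM kinases, which phosphorylate survival and growth proteins, Pim2 rose by a log2 fold change of 1.18 at pH 6.6 and 1.13 at pH 7.4, and Pim3 by 0.40 and 2.21. Pim1 was not called at pH 6.6 (log2 fold change -0.04, edgeR adjusted p = 0.72). Its mean was 316.5 CPM without IL-2 and 307 CPM with IL-2 at pH 6.6, both above the 133 and 170.2 CPM at pH 7.4.

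Bcl2, which protects mitochondria from the pro-apoptotic BH3 proteins, stood at 223, 179.5, 180, 158 and 166 CPM without IL-2 and at 789, 452, 529, 498 and 504 CPM with IL-2. Each library with IL-2 was at least as high as 452 CPM and none without IL-2 exceeded 223 CPM. The log2 fold change was 1.61 ± 0.10 (edgeR adjusted p = 7.79e-14) at pH 6.6, 1.72 at pH 7 and 1.52 at pH 7.4, and the 95% confidence interval of the difference was -0.19 to 0.36. Its relative Bcl2l1 (BCL-XL) rose by only 0.34 at pH 6.6 against 2.63 at pH 7.4, and Mcl1 was not called (0.10).

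The G1 cyclin Ccnd2 rose from 152, 170.3, 177, 164 and 179 CPM to 404, 365, 387, 494 and 474 CPM, a log2 fold change of 1.34 ± 0.10 against 1.51 at pH 7.4 (95% confidence interval of the difference -0.47 to 0.12). Ccnd3 rose by 1.13 at pH 6.6 and 2.23 at pH 7.4. Both cyclins were separated between the groups at pH 6.6.

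Of the remaining STAT5 genes, Gzmb and Prf1 are described with the killing machinery and Myc with growth. Osm, which encodes oncostatin M, rose by 1.96 at pH 6.6 and 3.31 at pH 7.4, Lta (lymphotoxin alpha) by 1.04 and 2.90, and Il2ra by 0.32 and 1.58. Tnfrsf18, Il12rb2, Prdm1, Il4ra, Il10ra and Tnfrsf4 were not called at pH 6.6, with log2 fold changes between -0.19 and 0.16. The 2 falls were Bcl6, a transcriptional repressor of effector differentiation, and Il7r, the receptor of the homeostatic cytokine IL-7, both known to be repressed by IL-2.

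**Figure D2:**
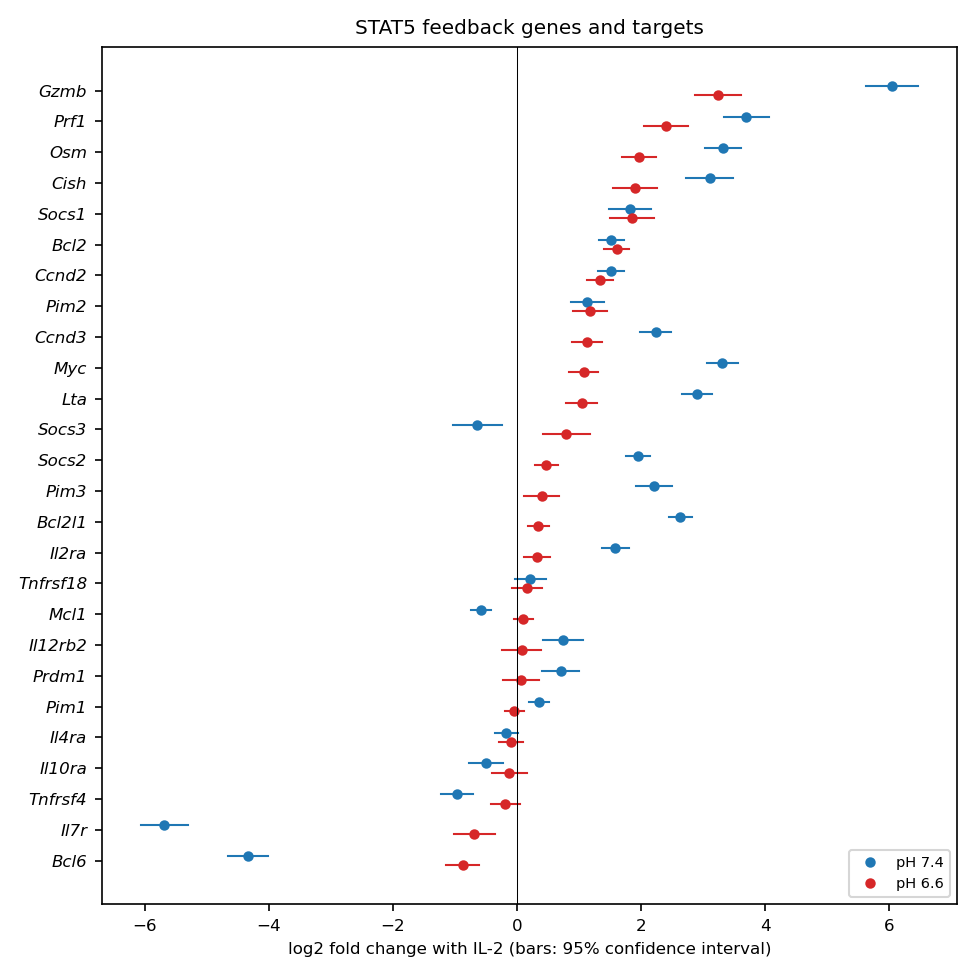
Log2 fold change with IL-2 (horizontal axis; bars are 95% confidence intervals) of the 26 STAT5 feedback genes and targets at pH 6.6 (red) and pH 7.4 (blue), ordered by the effect at pH 6.6. Socs1, Bcl2, Ccnd2 and Pim2 have overlapping intervals at both pH values, whereas Gzmb, Myc, Bcl6 and Il7r lie nearer to 0 at pH 6.6.

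STAT5 dimers bind the palindrome TTCNNNGAA, which reads the same on both strands. RefSeq promoter windows (GRCm38.p6, 250 bases before to 50 after each start) were found for 21 of the 26 STAT5 genes, and 8 of these (38.1%) held the motif, against 8.21% of the 9977 tested genes with a window. The list was written as STAT5 targets from general knowledge, so its share is not independent of what is known of these promoters. Among all genes called higher at pH 6.6 the share was 9.01%, and among the 133 genes with a window that rose at both pH values without a called difference it was 8.27%. The matches are shown here to set the sequences beside the responses of these genes. Socs1, Bcl2 and Pim2, whose effects had no called difference from pH 7.4, held 0 matches in their windows. Each sequence is 5′ to 3′ on the gene's strand with the motif in capitals, and for Cish both matches lie within the 20 bases after the RefSeq start.

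Cish (chr9:107296649-107296678, plus strand): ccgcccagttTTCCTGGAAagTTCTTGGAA
Socs3 (chr11:117969502-117969531, minus strand): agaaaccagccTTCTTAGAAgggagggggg
Il12rb2 (chr6:67376293-67376322, minus strand): agttcccttttTTCTCAGAAccgcactaag
Tnfrsf18 (chr4:156026212-156026241, plus strand): ctgctctacacTTCACAGAAggcctttaca
Il7r (chr15:9530000-9530029, minus strand): agttcaggagcTTCAGGGAAtaccaagatg
Lta (chr17:35205332-35205531, minus strand): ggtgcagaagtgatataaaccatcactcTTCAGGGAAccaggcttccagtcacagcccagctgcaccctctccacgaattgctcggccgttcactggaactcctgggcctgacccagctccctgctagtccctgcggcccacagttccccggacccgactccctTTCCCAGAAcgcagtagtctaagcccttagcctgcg
Bcl6 (chr16:23981264-23981463, minus strand): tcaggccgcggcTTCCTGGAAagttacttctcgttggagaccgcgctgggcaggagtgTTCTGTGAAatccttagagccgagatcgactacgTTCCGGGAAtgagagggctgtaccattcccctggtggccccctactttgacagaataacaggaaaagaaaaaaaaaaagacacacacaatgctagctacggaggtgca

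The Cish stretch carries a pair of matches, and Cish rose at pH 6.6. Bcl6 carries 3 matches at 1 of its 2 RefSeq starts, and Bcl6 fell. Tnfrsf18 and Il12rb2 carry 1 match each in the stretches shown and were not called at pH 6.6. Gzmb, the other member with a match, is not shown. A match is a description of the sequence and not a measured binding site.

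The parts of the receptor itself moved little. Il2ra stood at 302, 318, 328, 244 and 255 CPM without IL-2 and at 387, 350.3, 394, 334 and 342 CPM with IL-2 at pH 6.6. The lowest value with IL-2 was just above the highest without it. The fitted log2 fold change was 0.32 ± 0.11 (edgeR adjusted p = 0.0234), and the call was lost without replicate 3, 4 or 5. At pH 7.4 Il2ra rose by 1.58, from a mean of 184 to 549 CPM. Il2rb rose by 0.44 ± 0.10 at pH 6.6 and by 0.71 at pH 7.4, and the difference had a 95% confidence interval of -0.55 to 0.002. Il2rg (0.13), Stat5a (0.02) and Jak3 (-0.01) were not called, and counts of Il2rg may be incomplete, since 30.5% of its exon bases overlap a neighbour on its own strand. Jak1 fell from 2207 to 2573 CPM to 1450 to 2018 CPM, with no overlap, by a log2 fold change of -0.51 ± 0.07, against -1.59 at pH 7.4. Stat5b was slightly lower with IL-2 (-0.22, edgeR adjusted p = 0.0195), a call lost under 5 of the 12 settings tried (this one included). Stat3 fell at pH 6.6 (-0.28) and rose at pH 7.4 (0.28). Of the 12 genes of this group, 3 rose and 3 fell at pH 6.6.

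Gzmb and Prf1, genes of the killing machinery, rose at pH 6.6 by less than at pH 7.4. Gzmb, the protease granzyme B, stood at 81, 90.2, 74.4, 114 and 72.7 CPM without IL-2 and at 976, 528, 482, 1215 and 1023 CPM with IL-2 at pH 6.6. Every library with IL-2 was above every library without it, and replicates 2 and 3 had the lowest values with IL-2. Its log2 fold change was 3.24 ± 0.18 (edgeR adjusted p = 1.04e-14), against 6.05 at pH 7.4 and 6.49 at pH 7. The mean with IL-2 was 845 CPM at pH 6.6, 7796 CPM at pH 7.4 and 7958 CPM at 0 h, while the mean without IL-2 was 86.5 CPM at pH 6.6 and 124 CPM at pH 7.4.

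Prf1, the pore-forming protein perforin, rose from 13.7, 15.9, 11.1, 29.5 and 17 CPM to 79.7, 73.5, 43.5, 156 and 111 CPM, a log2 fold change of 2.40 ± 0.17 against 3.69 at pH 7.4. Tnf, which encodes the cytokine TNF, rose from 7.95, 6.44, 8.27, 14.9 and 16.2 CPM to 42.8, 27.8, 27.1, 49 and 50.7 CPM. The fitted log2 fold change was 1.89 ± 0.20 at pH 6.6 and 2.04 at pH 7.4, with a 95% confidence interval of the difference of -0.70 to 0.39. Neither gene overlapped between the groups.

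Of the 26 cytotoxic and secreted effector genes tested (of 27 listed), 11 rose and 3 fell at pH 6.6, with a median of 0.40, against 1.05 at pH 7.4. The falls were Gzmk (-0.59), a granzyme of less differentiated cells, Serpinb6b (-0.56), a serpin that rose with IL-2 at pH 7.4 (0.37), and Gzmm (-0.31), which was chosen for naming after its value was seen. Tnfrsf9, the costimulatory receptor 4-1BB, rose from 38.7, 36.5, 29.7, 41.9 and 36.1 CPM to 188, 144, 118, 239.6 and 230.2 CPM, by a log2 fold change of 2.30 ± 0.15 against 4.78 at pH 7.4. Of 17 inhibitory and costimulatory receptors tested (of 18 listed) 6 rose and 5 fell, and 1 fell without replicate 1. Cd160, a receptor of the immunoglobulin family on cytotoxic cells, rose by 1.29 at pH 6.6 and 0.89 at pH 7.4. Pdcd1, the inhibitory receptor PD-1, fell by 0.82 on the log2 scale with overlapping groups (28.8 to 74.2 and 17.5 to 37.9 CPM) and a call lost without the pairing, and Ctla4 by 0.51, a call lost under 5 of the 12 settings tried.

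**Figure D3:**
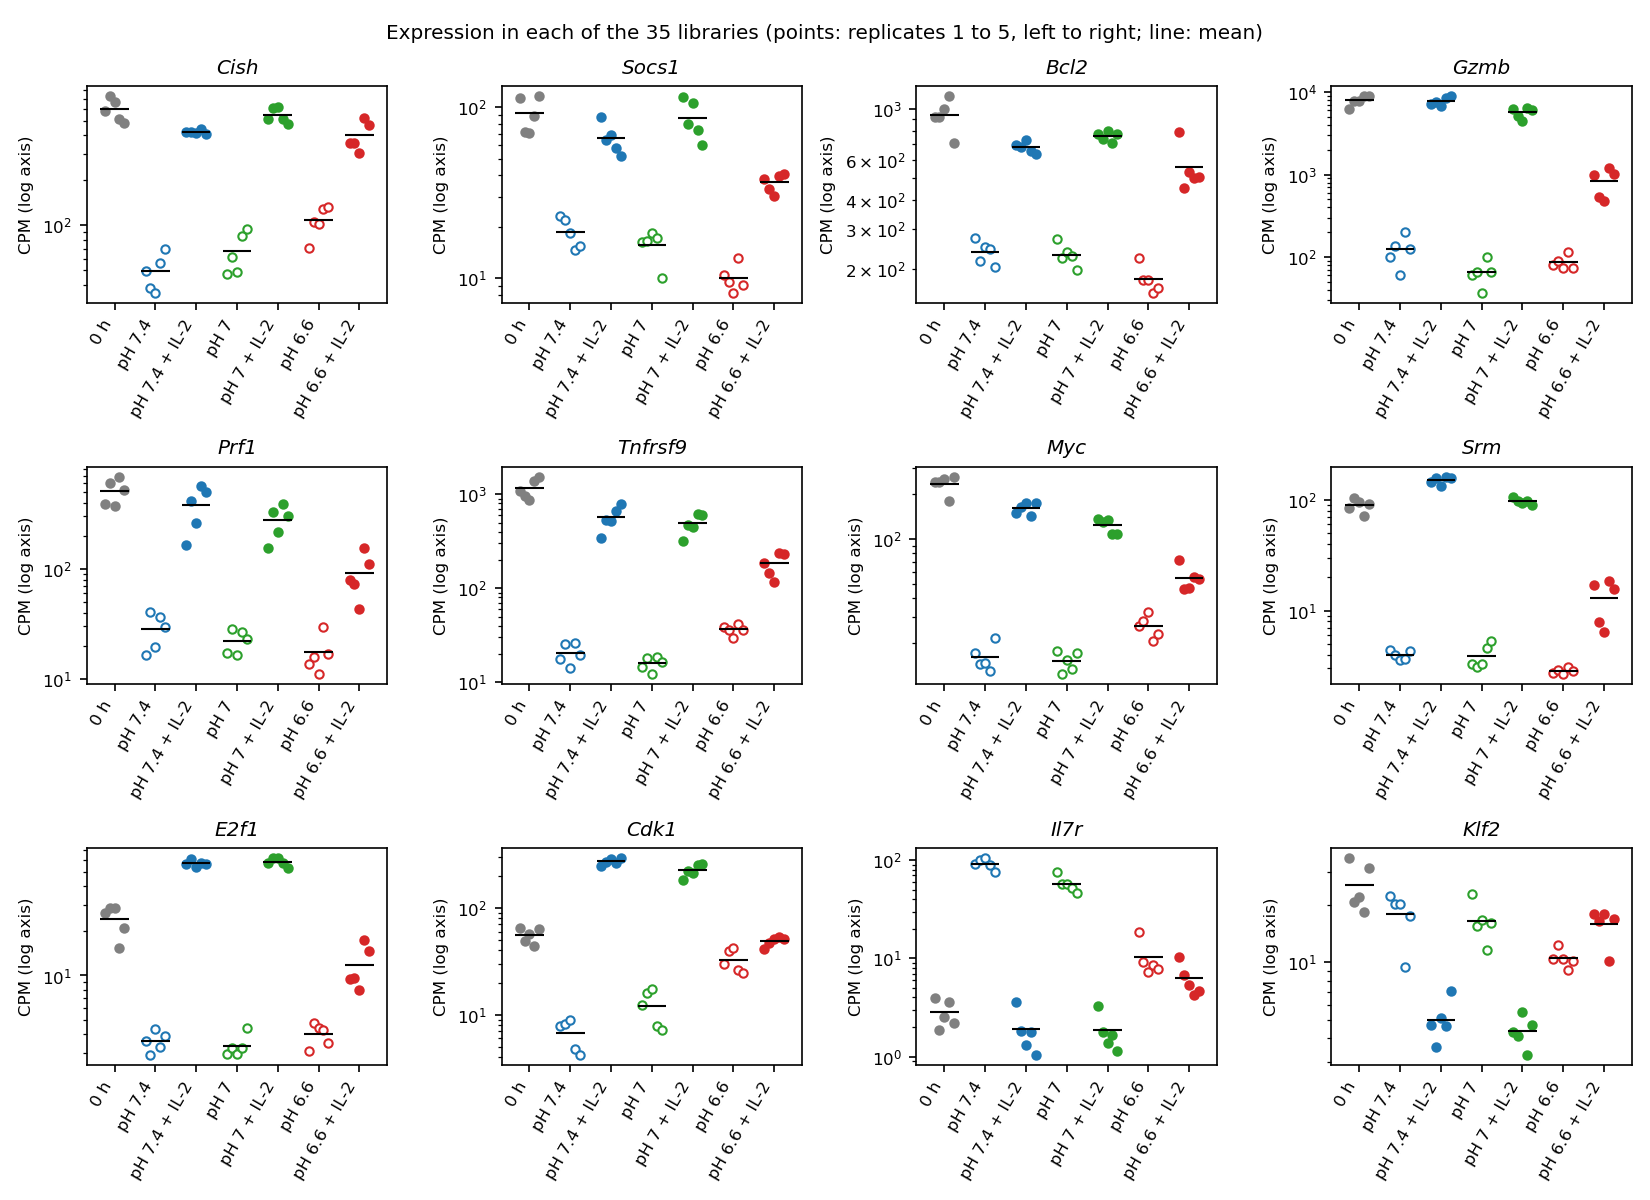
CPM on a log axis for 12 genes in the 35 libraries, in the order 0 h, then pH 7.4, pH 7 and pH 6.6 without IL-2 (open points) and with IL-2 (filled points), with the 5 replicates from left to right and the mean as a line. Gzmb, Srm and E2f1 with IL-2 at pH 6.6 lie between the groups without IL-2 and the IL-2 groups at pH 7.4 and pH 7, Cish with IL-2 is near its level at pH 7.4, and Il7r without IL-2 is far below its level at pH 7.4.

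Among the other large rises, some were smaller and some not smaller than at pH 7.4. Tgm2, the enzyme transglutaminase 2, rose by 2.70 ± 0.17 at pH 6.6 against 5.57 at pH 7.4, and Tcrg-C1, a constant segment of the T cell receptor gamma locus, by 2.47 ± 0.19 against 3.25. Only 65.8% of the 50-base windows of Tcrg-C1 occur in no other gene, so its counts may be incomplete. For Tgm2, 21.8% of the exon bases overlap a gene on the opposite strand, and the strand setting of the counting is not given. Lif, a cytokine of the IL-6 family, rose by 2.64 ± 0.50 against 7.09, but replicates 4 and 5 without IL-2 (7.28 and 10.8 CPM) reached the lowest value with IL-2 (9.82 CPM). Gm17767 rose from 6.61, 11.5, 9.63, 7.61 and 7.38 CPM to 77.1, 70.2, 79.7, 68.9 and 86.9 CPM, by 3.18 ± 0.15, against 2.72 at pH 7.4 (difference 0.45, edgeR adjusted p = 0.0424), and Ly6g5b, a member of the LY6 family, by 2.48 ± 0.18 against 2.44.

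Genes of growth responded in part. Myc stood at 26, 28.2, 32.5, 20.8 and 23 CPM without IL-2 and at 71.8, 45.9, 46.9, 55.6 and 53.9 CPM with IL-2 at pH 6.6. The groups did not overlap, and the log2 fold change was 1.07 ± 0.12 (edgeR adjusted p = 1.73e-08) against 3.31 at pH 7.4, a difference of -2.24 (95% confidence interval -2.57 to -1.90). Its mean with IL-2 was 54.8 CPM at pH 6.6, 160.1 CPM at pH 7.4 and 234 CPM at 0 h. Of 11 genes of the MYC and MAX network, Mxd3 also rose (0.76) and Mxd4, an antagonist of MYC at its sites, fell (-0.41). With Myc, 18.2% of this list rose and 9.09% fell, near the 13.2% and 10.6% of all genes tested.

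Of 42 genes of ribosome biogenesis, 33 rose and 0 fell at pH 6.6, with a median of 0.72, against 2.43 at pH 7.4, where all 42 rose. The difference between the effects was below 0 and called for 42 of 42. The median in single pairs was 0.95, 0.36, 0.40, 0.75 and 0.78. Srm, the spermidine synthase, rose from 2.73, 2.91, 2.68, 3.07 and 2.87 CPM to 17.1, 7.96, 6.42, 18.4 and 15.6 CPM, by 2.16 ± 0.20 against 5.23, and Bysl, a factor of the small ribosomal subunit, by 2.02 ± 0.19 against 3.83. Both were separated between the groups. Under the other settings 29 to 35 members rose, and 2 fell where only the 10 libraries at pH 6.6 were fitted.

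Sterol and fatty acid synthesis, which SREBP controls, had 17 of 32 members higher and 1 lower, with a median of 0.34 against 2.24 at pH 7.4. Hsd17b7, an enzyme of cholesterol synthesis, rose from 1.14 to 1.88 CPM to 6.72 to 13.8 CPM, by 2.83 ± 0.30 against 3.80, and Lss, lanosterol synthase, by 1.48 ± 0.14 against 2.73. The 1 fall was Fads1, a fatty acid desaturase (-0.36). In glycolysis 9 of 19 rose and 0 fell, with a median of 0.38 against 2.17. Hk2, a hexokinase, rose by 2.27 ± 0.26 against 5.00, and Slc16a1, the lactate carrier MCT1, by 1.03 ± 0.12 against 2.61. The count in glycolysis ranged from 3 without replicate 4 to 13 where only the 10 libraries at pH 6.6 were fitted. Over all genes, 1356 of 13845 rose without replicate 4 and 2807 of 12514 in the fit of the 10 libraries.

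Amino acid supply showed a split. Slc7a5, the light chain of the large neutral amino acid carrier, rose by 0.73 ± 0.15 at pH 6.6 and 4.06 at pH 7.4, while Slc3a2, its heavy chain, fell from 263 to 278 CPM to 187 to 239 CPM (-0.38 ± 0.09, no overlap) and rose at pH 7.4 (1.22). Without IL-2 the mean of Slc3a2 was 269 CPM at pH 6.6 and 86.4 CPM at pH 7.4. Of 12 amino acid transporters 4 rose and 3 fell. Of 23 ATF4 and integrated stress response genes 6 rose and 2 fell, with a median of 0.01 against 1.69 at pH 7.4. Stc2, a secreted glycoprotein, rose by 1.63 ± 0.20, and Psat1, an enzyme of serine synthesis, by 0.70 ± 0.08, against 2.77 and 3.96. Atf4 itself fell (-0.25) and Ddit3 (CHOP) fell (-0.47), and both calls were lost when replicate 4 was left out. Of 20 ER chaperones and unfolded protein response genes 3 rose (15%) and 1 fell (5%), where 13.2% and 10.6% of all genes tested did. Sdf2l1 was among the rises (1.45 against 3.94 at pH 7.4).

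The cell cycle genes responded unequally. Of 15 cyclin D, CDK and CDK inhibitor genes tested (of 16 listed) 6 rose and 1, Rbl2, fell (-0.23), a call lost without replicate 1 or 2. Of 37 genes of DNA replication 29 rose and 0 fell, with a median of 0.67 at pH 6.6 against 3.66 at pH 7.4. E2f1, the transcription factor at the entry to S phase, rose from 3.07, 4.8, 4.41, 4.25 and 3.48 CPM to 9.42, 9.68, 8.01, 17.4 and 14.7 CPM, with no overlap, by 1.56 ± 0.18 against 3.99. Gins1, a subunit of the replicative helicase, rose by 1.34 ± 0.19 against 5.15.

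In the main test 3 of 35 genes of mitosis rose (8.57%) and 1 fell (2.86%), both below its shares of all genes tested (13.2% and 10.6%). The median was 0.28 at pH 6.6 against 4.29 at pH 7.4. Cdk1, the mitotic kinase, stood at 29.8, 39.8, 42.2, 26.2 and 24.3 CPM without IL-2 and at 41.5, 46.8, 51, 53.5 and 50.7 CPM with IL-2, and the highest value without IL-2 exceeded the lowest with it. Its log2 fold change was 0.61 ± 0.18 against 5.35 at pH 7.4. The mean without IL-2 was 32.5 CPM at pH 6.6 and 6.78 CPM at pH 7.4, and the mean with IL-2 was 48.7 and 273 CPM. Where only the 10 libraries at pH 6.6 were fitted, 27 of the 35 genes were called higher and 2 lower. That fit called 2807 of 12514 genes higher and 2562 lower. Without replicate 4 none of the 35 was called higher and 1 was lower, where 1356 of 13845 genes were higher and 763 lower. The median over the mitosis genes lay above 0 in 5 of 5 pairs (0.02 to 0.46). For DNA replication the count ranged from 27 to 33 under the other settings. Cenpa, the histone of the centromere, fell from 528 to 654 CPM to 306 to 501 CPM (-0.60 ± 0.13), and rose at pH 7.4 (1.66). Its mean without IL-2 was 601 CPM at pH 6.6 and 64.2 CPM at pH 7.4.

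**Figure D4:**
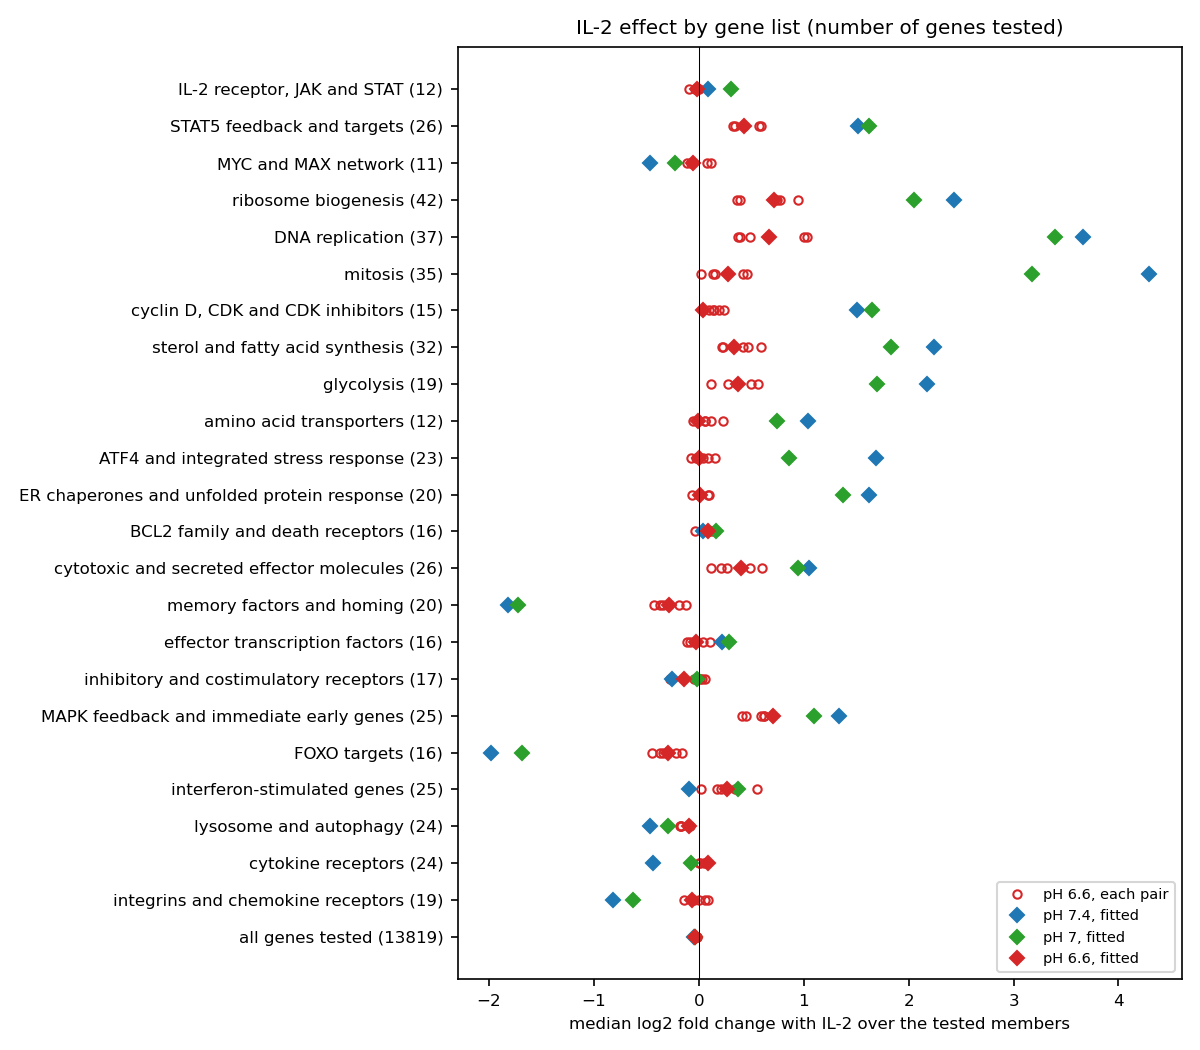
Median log2 fold change with IL-2 over the tested members of each gene group at pH 7.4 (blue), pH 7 (green) and pH 6.6 (red diamonds), with the 5 single pairs at pH 6.6 as open circles. Ribosome biogenesis, DNA replication and the MAPK genes have the highest medians at pH 6.6 (0.67 to 0.72), and all are below their medians at pH 7.4.

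Genes of memory, homing and quiescence are known to be repressed by IL-2. Of 20 memory and homing genes 9 fell (45%, where 10.6% of all genes tested fell) and 4 rose at pH 6.6, with a median of -0.28 against -1.82 at pH 7.4, where 18 fell. Bcl6 stood at 93.3, 98.7, 98.2, 79.99 and 83.5 CPM without IL-2 and at 41.4, 60.8, 61.1, 39.5 and 43.7 CPM with IL-2, with no overlap. The fitted log2 fold change was -0.88 ± 0.13 at pH 6.6 against -4.34 at pH 7.4, where the mean with IL-2 was 2.83 CPM. The count of memory and homing genes that fell was 6 without replicate 1. Slamf6, a receptor of stem-like T cells, fell by 1.00 on the log2 scale against -3.17 at pH 7.4.

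Il7r stood at 18.6, 9.18, 7.22, 8.51 and 7.7 CPM without IL-2 and at 10.3, 6.8, 5.41, 4.24 and 4.62 CPM with IL-2. The groups overlapped, since replicate 1 was high in both. Its log2 fold change was -0.69 ± 0.16 (edgeR adjusted p = 0.00198) at pH 6.6 and -5.68 at pH 7.4, and the call at pH 6.6 was lost without the pairing (lowest and highest adjusted p over the other settings 7.31e-05 and 0.0642). The groups without IL-2 differed: the mean was 10.2 CPM at pH 6.6 and 92.4 CPM at pH 7.4. Eomes, a transcription factor of memory and cytotoxic cells, rose by 0.70 ± 0.09, against 2.10.

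Of 16 FOXO targets 6 fell (37.5%) and 1 rose at pH 6.6, and all 16 fell at pH 7.4. The fitted medians were -0.29 and -1.98, and the difference between the effects was called for 16 of 16. Pik3ip1, an inhibitor of PI3 kinase, fell from 231 to 263 CPM to 147 to 194 CPM (-0.56 ± 0.09, against -3.83). The rise was Klf2, a factor that keeps T cells quiescent and circulating, at 10.4, 12.4, 10.4, 9.16 and 10.2 CPM without IL-2 and 17.9, 16.6, 18, 10.2 and 16.9 CPM with IL-2. Replicate 4 with IL-2 lay within the range without IL-2. The fitted log2 fold change was 0.57 ± 0.15 at pH 6.6 and -1.82 at pH 7.4, a difference of 2.39 (95% confidence interval 1.95 to 2.82). The count of FOXO targets that fell was 3 without replicate 2 and 14 where only the 10 libraries at pH 6.6 were fitted. Over all genes, 805 of 13795 fell without replicate 2 and 2562 of 12514 in the fit of the 10 libraries.

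Of the 16 BCL2 family and death receptor genes tested (of 18 listed) 6 rose and 3 fell. The falls were the BH3 proteins Bmf (-0.50), Bbc3 (-0.45) and Bcl2l11 (-0.34), of which the last was named after its value was seen. The call for Bbc3 (PUMA) was lost under 7 of the 12 settings tried, and Bid, a BH3 protein, rose (0.85). Of 24 lysosome and autophagy genes 9 fell and 1, Atp6v1a, rose (0.22), a call lost under 4 of the 12 settings tried, among them those without replicate 3, 4 or 5. Ulk1, the kinase that starts autophagy, fell by 0.51 on the log2 scale, from a mean of 159 to 112 CPM, against 62.3 to 23.4 CPM at pH 7.4. The largest single falls by the naming rule given below were Dhrs3, a retinal reductase (-1.29 ± 0.14), and Gm14085 (-1.15). Next were Kcnc1, a potassium channel (-1.09), and Tbc1d4, a regulator of glucose carrier traffic (-1.04 ± 0.11). Only 69.7% of the 50-base windows of Gm14085 occur in no other gene, so its counts may be incomplete. Dhrs3 stood at 32.3, 23.1, 26.6, 29.8 and 31.4 CPM without IL-2 and at 12.4, 12.6, 12.2, 9.7 and 11.2 CPM with IL-2. Its effect at pH 7.4 was -4.09.

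Of 25 immediate early and MAPK feedback genes 15 rose and 0 fell at pH 6.6, with a median of 0.71 against 1.33 at pH 7.4. Egr1, a transcription factor induced within minutes of MAPK signalling, stood at 21.5, 16.8, 21.9, 130.4 and 101 CPM without IL-2 and at 273, 312, 117, 683 and 833 CPM with IL-2. Each pair rose, but the groups overlapped because replicates 4 and 5 were high in both. Its log2 fold change was 3.01 ± 0.58 (edgeR adjusted p = 0.000343) against 1.61 at pH 7.4, and the 95% confidence interval of the difference was -0.16 to 2.97. Fos rose by 1.76 ± 0.55 against 1.34, with overlapping groups, and its call was lost without replicate 1 or 2. The count of the list was 10 without replicate 4 of the IL-2 group.

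Of 16 effector transcription factors 4 rose and 1 fell. Id2, an inhibitor of E proteins, rose by 1.05 ± 0.10 at pH 6.6 and 1.16 at pH 7.4 (95% confidence interval of the difference -0.40 to 0.18), while Irf8 rose by 1.22 against 3.32 and Ikzf2 (Helios) fell by 0.63 on the log2 scale against -4.13. Among 24 cytokine receptors tested (of 26 listed) 7 rose and 4 fell. Il12rb1, the beta 1 chain of the IL-12 receptor, rose from 33.9 to 55.9 CPM to 68.3 to 161 CPM (1.38 ± 0.12, against 2.56), and Il27ra rose at pH 6.6 (0.53) and was lower with IL-2 at pH 7.4 (-0.24). Among 19 integrins and chemokine receptors tested (of 22 listed) 7 rose and 2 fell, with Ccr2 at 0.66 at pH 6.6 and 0.60 at pH 7.4.

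For some rises no difference between the effects at pH 6.6 and pH 7.4 was called. Of the 2775 genes that rose by a log2 fold change of at least 1 at pH 7.4, 180 also rose at pH 6.6 with no called difference between the effects, of which 35 had a mean level of 3 or more on the log2 CPM scale. A difference that is not called does not show that the effects were equal. Socs1, Tnf, Ly6g5b and Egr1 headed these 35 by their effect at pH 6.6, and Bcl2, Ccnd2, Pim2 and Id2 were among them. Only 1 gene, Inf2, met the same conditions among the falls (-0.64 against -1.07), and its call at pH 6.6 was lost without the pairing.

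In 27 genes the effect had the same direction at both pH values and was larger at pH 6.6 by the interaction contrast, 26 rises and 1 fall. Flt3l, the ligand of the receptor FLT3, stood at 59.3, 61, 61.3, 62.6 and 62.2 CPM without IL-2 and at 201, 143, 156, 215 and 190.2 CPM with IL-2. The fitted log2 fold change was 1.56 ± 0.09 at pH 6.6 against 0.70 at pH 7.4 (difference 0.85, 95% confidence interval 0.61 to 1.10). Reads from the 22.1% of its exon bases that overlap a neighbour on its own strand could not be assigned, and its counts may be incomplete. Klrb1c, the receptor NK1.1, rose from 8.27 to 12.1 CPM to 19.4 to 33.2 CPM (1.32 against 0.48). It is also a marker of natural killer cells, whose 3 markers summed to 116 to 134 CPM without IL-2 and 176 to 266 CPM with IL-2, most of it from Eomes, while the defining marker Ncr1 was at 0 in all 10 libraries. The fall was Abcb1b, a drug efflux pump (-0.55 against -0.30).

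Another 270 genes were called in opposite directions at pH 6.6 and pH 7.4, 161 of them higher with IL-2 at pH 6.6. Among well measured genes, the 4 largest differences above 0 were in 2310043P16Rik (0.37 against -2.40), Klf2, Mettl27 (0.47 against -1.87) and Zfp950 (0.29 against -2.02). The 4 largest below 0 were in Adk, adenosine kinase (-0.65 against 1.68), Cenpa, Prim2, a primase subunit (-0.45 against 1.58), and Slc3a2. The rises at pH 6.6 of 2310043P16Rik, Mettl27 and Zfp950 were lost under 4, 4 and 5 of the 12 settings tried.

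Some interferon-inducible genes rose with IL-2 at pH 6.6. Of 25 interferon-stimulated genes 10 rose (40%) and 0 fell at pH 6.6, with a median of 0.27. At pH 7.4, 6 rose and 10 fell, with a median of -0.09. For 2 of the 25, all libraries with IL-2 at pH 6.6 lay above all without it, as for 6.79% of all genes tested. Zbp1, a sensor of nucleic acids, rose from 33.2 to 39.7 CPM to 44.9 to 77.2 CPM (0.69 ± 0.12). Usp18 rose by 0.90 ± 0.18 with overlapping groups, a call lost without the pairing. Without replicate 5 the count of rises was 6, where 1482 of 13850 genes tested rose.

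The GTPases of the GBP, IRG and GVIN families, which attack intracellular pathogens and are induced by interferon gamma, were gathered by symbol after their values were seen. Of 22 tested, 16 rose and 0 fell at pH 6.6, with a median of 0.72, while 4 rose and 7 fell at pH 7.4, with a median of -0.17. The difference was above 0 and called for 14 of the 22. Iigp1 rose from a mean of 39 ± 6.598 to 99.2 ± 45.8 CPM (SD, n = 5) at pH 6.6, by a log2 fold change of 1.31, and was not called at pH 7.4 (0.13), where both groups were higher, at 595 and 652 CPM. Gbp6, Gbp10, Gm4070, Gvin1, Tgtp1 and Tgtp2 share most of their sequence with other genes (0.844% to 29.3% of their 50-base windows are unique), so reads can be missing or assigned between copies, and their values (0.94 to 1.68) are uncertain. Ifng, the gene of interferon gamma, also named after its values were seen, rose at pH 6.6 (2.64 ± 0.37): it stood at 0.609 ± 0.261 CPM without IL-2 and 4.09 ± 2.99 CPM with IL-2 at pH 6.6 (SD, n = 5), against 7.18 and 23.3 CPM at pH 7.4. Whether these values move with the GTPases in the same cells was not tested.

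**Figure D5:**
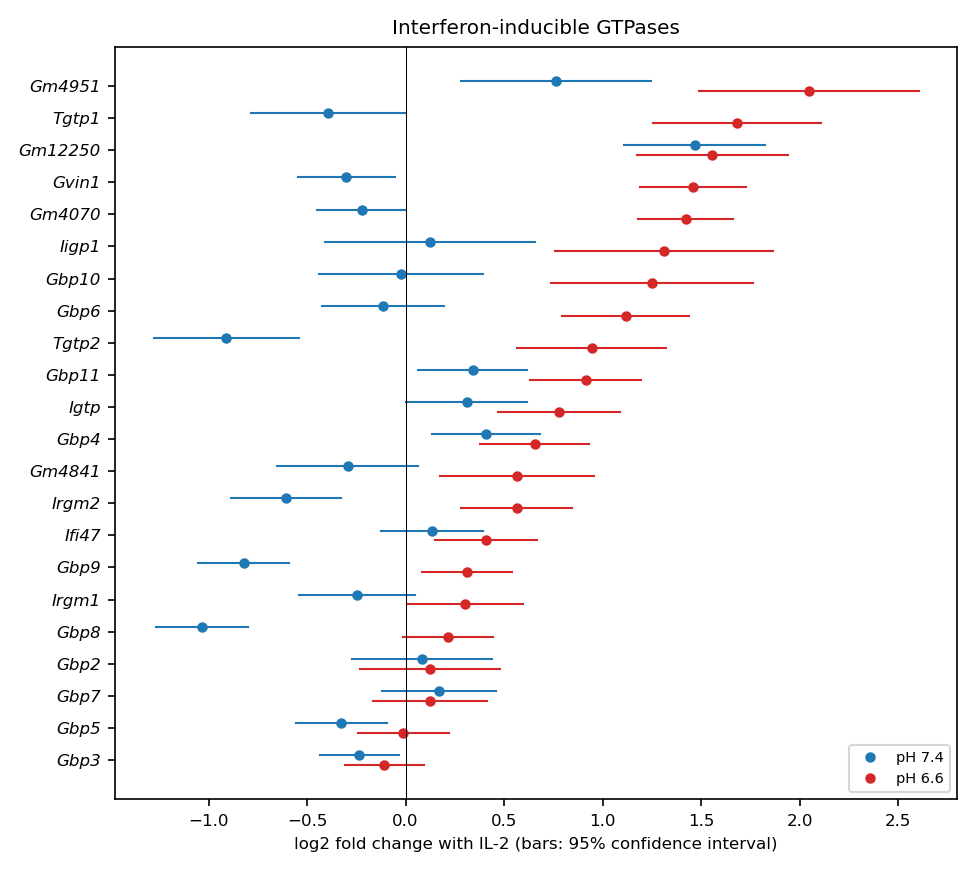
Log2 fold change with IL-2 (horizontal axis; bars are 95% confidence intervals) of the 22 interferon-inducible GTPases at pH 6.6 (red) and pH 7.4 (blue), ordered by the effect at pH 6.6. The red points reach from -0.11 to 2.05 and 16 are called higher, while the blue points lie on both sides of 0.

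The remaining marker lists moved as follows. Of the 10 CD8 T cell markers 5 rose and 1 fell (-0.40) at pH 6.6, and 4 were not called. The median log2 fold change was 0.17 at pH 6.6 and -0.22 at pH 7.4. Cd8a, 1 of the rises, was 674 to 815 CPM without IL-2 and 834 to 1247 CPM with IL-2 at pH 6.6. Its log2 fold change was 0.54, against -0.03 at pH 7.4. The summed level of the 3 CD4 T cell markers was 17.2 to 30.5 CPM without IL-2 and 20.9 to 32.8 CPM with IL-2. Of these 3 markers 2 were called higher with IL-2 at pH 6.6, by log2 fold changes of 2.44 and 2.64, and 0 lower. Foxp3 rose from at most 0.123 CPM to at most 0.458 CPM and Cd4 from a median of 0.0454 to 0.760 CPM, both low levels. Their part in the results above was not tested.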

How the data were processed

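RNA was sequenced from 35 libraries of OT-I CTLs in 7 groups of 5, of which the 10 at pH 6.6 are the subject here. The deposited values are raw gene counts that the authors made with cutadapt 1.8, STAR 2.5.2b and HTSeq 0.6.1 on GRCm38, per the labels and the submitters' processing notes. The strand setting of the counting is not given in the sources used here. The members and gene lists were chosen with earlier results of these data known.

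From the counts, the 5 rows that name no gene were left out (reads aligned to more than 1 place were 32.8% to 48.3% of a library's reads, and those outside genes 2.58% to 11.1%), and a gene was tested if it passed edgeR's filterByExpr with a minimum count of 10, which left 13819 genes. Libraries were scaled by TMM. The model (edgeR 4.0.16, R 4.3.3, robust quasi-likelihood test, all 35 libraries) had a term for each group and a block for the replicate number, and p-values were adjusted by Benjamini-Hochberg with a threshold of 0.05. The IL-2 effect at pH 6.6, pH 7 and pH 7.4 and the difference of the effects at pH 6.6 and at pH 7.4 were contrasts of this model. CPM values of single genes are per library after TMM, and summed marker levels are scaled to the raw library total. Genes were named by a rule: the 8 largest rises and 8 largest falls with a mean log2 CPM of 3 or more and 1 sign in 5 of 5 pairs, the 2 largest rises and falls of each list (mean log2 CPM of 1 or more), 12 genes of the IL-2 pathway in any case, and the 4 largest in each direction among well measured genes with opposite effects, with effects of 1 or more at pH 7.4 and no called difference, or with a larger effect at pH 6.6. Other members of the lists are given beside them, and a gene singled out otherwise is said to be chosen after its values were seen.

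The replicate numbers come from the titles. The deviations of same-numbered libraries at pH 6.6 from their group means correlated with r of 0.312 to 0.641 in 5 of 5 pairs, so they were taken as paired. Of the 20 pairs of libraries within the groups at pH 6.6, none agreed within counting noise (lowest chi-square per degree of freedom 7.19). Other pairs were not compared in this way. At these depths of 16721319 to 34033340 counts per library, p-values measure the spread between the replicates. That spread was estimated for each gene over all 35 libraries of the 7 groups, and not from the 5 pairs at pH 6.6 alone. In simulated counts for the IL-2 effect at pH 6.6 (12954 genes), 54 of 66 genes changed by 0.5 on the log2 scale and 67 of 67 changed by 1 were called. Of the unchanged genes, 9 were called. The simulation gave every gene the same spread, changed only the IL-2 group at pH 6.6 and left out genes of low level among those changed. Its recovery therefore does not give that in the real counts, where the spread differs between genes. The alternatives tried were DESeq2 1.42.0, RLE scaling, other expression filters, a fold threshold, no block, fits of only the groups compared, and leaving out each replicate. Promoter windows are from RefSeq (GRCm38.p6). Results for some genes that the rule picks are not reported here.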

Additional observations from a re-analysis of the deposited data

Results flagged for a closer look

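The highest or lowest of 5 replicates lay far from the other 4 (Dixon's ratio above 0.71) in 12 of the 204 groups of named genes examined, where chance flags about 1 in 20. Without IL-2 at pH 6.6 these were Il7r (18.6 CPM), Gzmk (84.7 CPM), Ulk1 (121 CPM) and Il27ra (47 CPM) in replicate 1, and Manf (47.7 CPM) and Ikzf2 (114 CPM) in replicate 4. With IL-2 at pH 6.6 they were Gucy2e (2.89 CPM), Fads1 (73.1 CPM) and Bcl2 (789 CPM) in replicate 1, Ern1 (76.2 CPM) and Bbc3 (91.7 CPM) in replicate 2, and Klf2 (10.2 CPM) in replicate 4.

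The effect of IL-2 at pH 6.6 differed from that at pH 7.4 for 9261 genes, 86 of the 102 named genes among them (edgeR, interaction contrast). Among named genes with effects of opposite sign, the difference on the log2 scale (pH 6.6 minus pH 7.4) was above 0 for Klf2 (2.39), Il27ra (0.77), Socs3 (1.43), 2310043P16Rik (2.77), Mettl27 (2.33) and Zfp950 (2.32). It was below 0 for Stat3 (-0.56), Cenpa (-2.26), Slc3a2 (-1.59), Atf4 (-0.81), Serpinb6b (-0.93), Adk (-2.33) and Prim2 (-2.04).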

How the results depend on the processing

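No named gene that was called at pH 6.6 was called in the opposite direction in any of the 12 settings that tested it. Stat5a, which was not called, had effects from -0.005 to 0.058 on the log2 scale, so its sign was not fixed. The median effect at pH 6.6 over the whole tested set also changed sign. It moved from -0.035 in the main test to 0.003 without replicate 1 and 0.005 without replicate 2. The medians of the gene lists are not covered by this check. At pH 6.6 the main test called 3278 genes (1819 higher, 1459 lower). With a fold threshold of 1 on the log2 scale it called 516 (474 higher, 42 lower), and where only the 10 libraries compared were fitted 5369 (2807 higher, 2562 lower). Without an expression filter 970 were lower, and with the replicate pairing left out of the block 2415 were called (1504 higher, 911 lower). DESeq2 called 3448 and RLE scaling 3187. Leaving out a replicate or, as was added after the data were seen, a single library gave 2119 to 3397 genes (1356 to 1939 higher, 752 to 1461 lower). The lowest count of falls was without replicate 1. The share of rises among the calls was 55.5%, 62.3% without the block, 69.7% without replicate 1, 69.3% without replicate 2 and 91.9% with the fold threshold. With the fold threshold, 5657 genes were called at pH 7.4 (2775 higher, 2882 lower), 4920 at pH 7 (2397 and 2523), and 4688 had an effect at pH 6.6 that differed from pH 7.4 (2543 above 0, 2145 below 0). Of 102 named genes, 99 were called, 75 of them in each of the 12 settings that tested them and 24 lost in at least 1, and 14 lost their call without the block. The fits without a single library are not among the 12, and up to 11 named genes lost their call in 1 of them. A demand for 10 counts in every library left 2 named genes untested. The cause was not tested.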
